A study of Mus musculus with 18 samples.

Results

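Wnt signalling genes were followed through a series of C2C12 libraries as 60 genes chosen by symbol: 19 Wnt ligands, 14 receptors and coreceptors (Frizzled, Lrp5, Lrp6, Ror1 and Ror2), 10 secreted antagonists, 9 genes of the R-spondin axis and 8 intracellular regulators, TCF/LEF factors and targets, out of 35275 genes listed. C2C12 is a mouse myoblast line that fuses into myotubes once serum is lowered, and the labels call this stock PAX7 NEG. The 18 libraries hold polyadenylated RNA from wild-type control cells, from cells overexpressing spliced MUNC and from cells overexpressing genomic MUNC, where MUNC is a promyogenic long noncoding RNA. Each kind of cell was harvested near 80% confluency in 20% serum (GM) and after 3 days in 2% horse serum (DM3), with 3 biological replicates a group. All groups share the PAX7 NEG background. The labels do not say whether a line is a pool or 1 clone, or whether controls carry an empty vector, so a difference between lines cannot be told apart from a difference between the cells that founded them. No gene was listed under the name of MUNC, so its level was not analysed here.

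In the canonical pathway, Wnt proteins bind Frizzled receptors with the coreceptors Lrp5 or Lrp6, which stops the Axin-containing destruction complex from degrading beta-catenin. Beta-catenin then joins TCF/LEF factors on DNA and switches on targets, of which Axin2, a feedback inhibitor, is a common readout. R-spondins bound to Lgr receptors remove the ligases Znrf3 and Rnf43, which otherwise clear Frizzled from the membrane, while Sfrp and Dkk proteins block ligands or coreceptors. In muscle, Wnt signals are known to act on commitment and fusion of myoblasts.

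Gene positions are those of GENCODE in GRCm38. The deposited values were taken as FPM, reads scaled per library and not by gene length, although the labels speak of FPKM. Library sums ran from 946834 to 1048477 FPM, so the scaling did not make the sums equal. Recovered depth was 38416702 to 68788327 reads a library, and 3 reads, the upper limit for a count of 0, equalled 0.0429 to 0.0757 FPM. Such limits cover counting error only. Of the 60 genes, 37 reached 0.5 FPM in at least 3 libraries and were tested among 13869 genes with limma, and a gene was called at an adjusted p under 0.05. Log2 differences were taken after adding 1 FPM, so those of genes near 0 are understated. Myoblast identity was partial in control cells: Myf5, Cdh15 and Itga7 were present, while Myod1, Pax7 and Pax3 averaged at most 0.0993 FPM in either medium. Myod1 averaged 12.4 FPM in MUNC spliced GM, above the 3.84 FPM of MUNC genomic GM. Myoblast markers (10 of 10) summed to 580 to 770 FPM in control GM and 754 to 1017 FPM in MUNC spliced GM. For MUNC genomic GM the sum was 841 to 1200 FPM, overlapping MUNC spliced GM. In DM3 the sums were 955 to 1316 FPM in control, 983 to 1564 in MUNC spliced and 2014 to 2099 in MUNC genomic cells. Myotube markers (8 of 10 matched) summed to 9.87 to 18.2 FPM in control DM3, to 55.96 to 102 FPM in MUNC genomic DM3, and in the spliced line to 165 to 932 FPM. Neuronal markers (5 of 5) summed to 530 to 828 FPM in control GM. Their GM sums were 222 to 295 FPM in MUNC genomic and 32.5 to 96.4 FPM in MUNC spliced cells. In DM3 they fell to 112 to 140 FPM in control, 67.8 to 91.4 in MUNC genomic and 6.47 to 19.3 in MUNC spliced cells. Fibroblast markers (7 of 7) summed to 3987 to 6790 FPM in control GM and 7989 to 14868 FPM in MUNC spliced GM. In DM3 the sums were 6916 to 8202 and 13290 to 13821 FPM, without overlap in either medium. MUNC genomic sums were 3279 to 9276 FPM in GM, overlapping control, and 9759 to 11131 FPM in DM3, above control. Of the 5 tested, 2 were called higher than control in MUNC spliced GM, beside 18.2% of all tested genes. In MUNC spliced DM3 it was 1 of the 5, beside 22.3%. MUNC genomic cells had 1 of the 5 called higher in GM, beside 12.2%, and 2 in DM3, beside 19.3%. Adipocyte markers (5 of 5) summed to 7.01 to 11.2 FPM in control GM and 20.2 to 26.1 FPM in MUNC spliced GM. Of the 3 tested, 2 were called higher there than in control and 1 lower, beside 18.2% and 17.3% of all tested genes. In bulk RNA, fewer cells of a type and less RNA per cell cannot be told apart, and the part of these marker shifts in the results was not tested. The labels do not say that replicates came from separate cultures, so p-values measure the spread between these libraries.

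MUNC spliced cells carried receptors and R-spondins that the other lines lacked or held at low levels, and in DM3 their Axin2 was the highest of the 6 groups. MUNC genomic cells held another set, led by Wnt7b, Lgr6 and Sfrp2, with Axin2 at or near 0. Dkk2 was low in both lines. The 37 tested genes are drawn library by library in the heat map, and the counts below are described without a test of the list. Of the 37, 19 were at 0.5 FPM or more in all 18 libraries, while 8 passed through 1 line only (Fzd8, Ror1, Ror2, Lgr5, Rspo2 and Rspo3 through MUNC spliced, Sfrp2 and Rspo1 through MUNC genomic). Those 8 were bound to differ in that line's comparisons. Fzd3 and Wnt6 passed through the MUNC lines only and were bound to lie above control. The counts are thus no support for a change of the pathway.

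**Figure D1:**
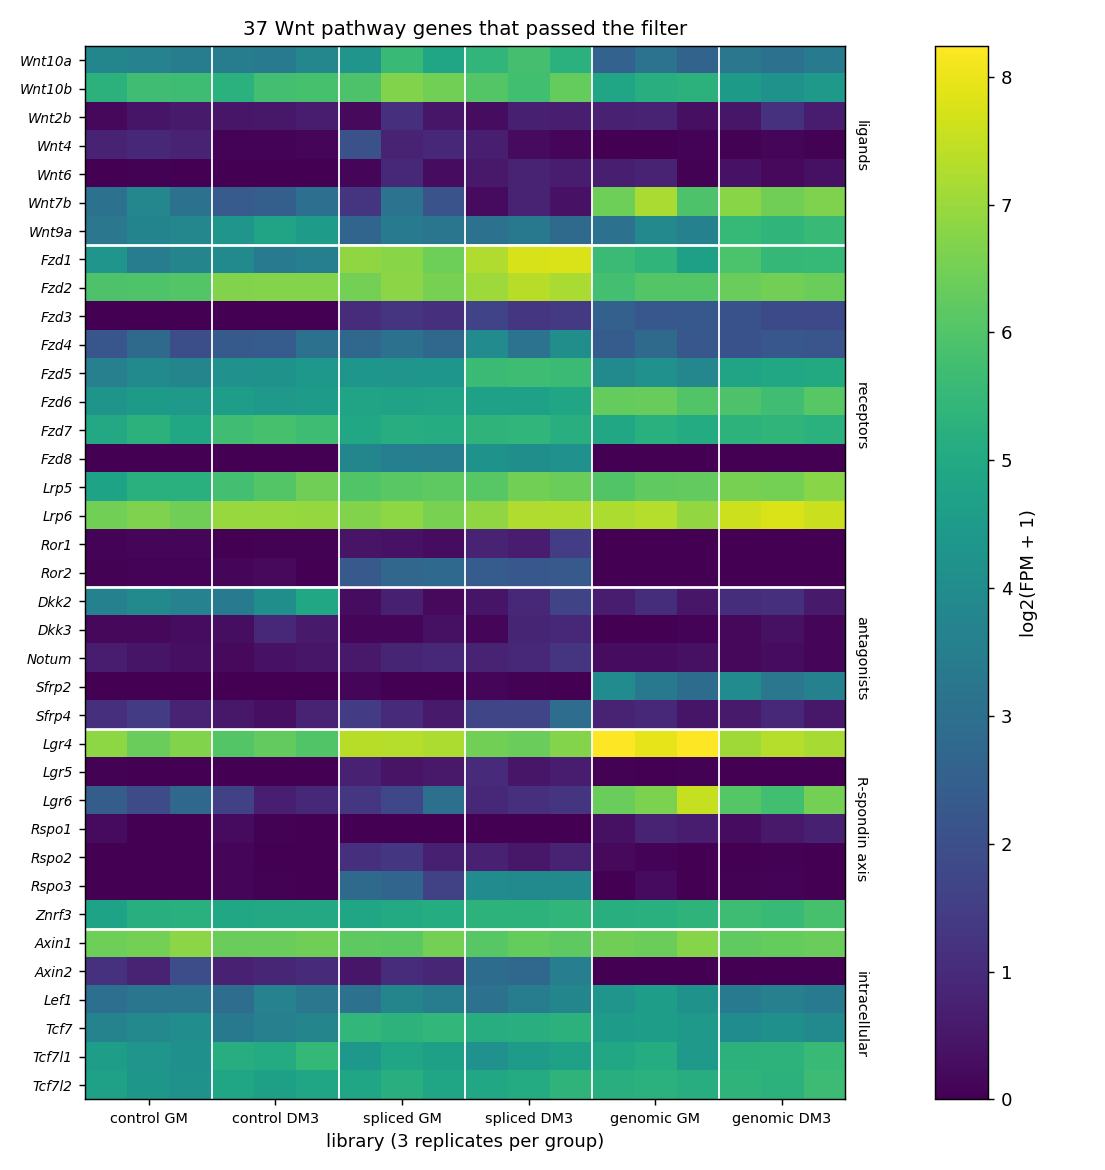
Level of the 37 tested Wnt pathway genes in the 18 libraries as log2(FPM + 1), with genes ordered by role and libraries by group (3 columns a group). Fzd8, Ror2 and Rspo3 are bright only in the 6 MUNC spliced columns, while Wnt7b, Lgr6 and Sfrp2 are brightest in the 6 MUNC genomic columns.

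Among 23 genes that were not tested, Dkk1, Fzd10, Wnt2, Wnt3a, Wnt5a and Wnt9b had 0 reads in all 18 libraries. The other 17 had reads but no value above 0.845 FPM, reached by Fzd9, and Fzd9, Wif1 and Wnt8b were the 3 that passed 0.5 FPM in any library. The untested group holds 12 of the 19 ligands, among them Wnt1, Wnt3 and Wnt3a, known activators of the canonical pathway. Several ligand genes are close neighbours, and in each such pair at most 1 gene was abundant. Wnt1 peaked at 0.126 FPM in a library beside Wnt10b at 101 FPM, 11706 bp away on chromosome 15. Wnt3a had no reads beside Wnt9a, which reached 46.9 FPM at a gap of 16175 bp on chromosome 11. Wnt6 stayed at or below 0.880 FPM beside Wnt10a at up to 55.3 FPM, 6193 bp apart on chromosome 1.

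Between MUNC spliced and control GM, 18 of the 37 passed the test, where 35.5% of all tested genes did. In the spliced line 16 were higher, beside 18.2% of all genes, and Wnt7b and Dkk2 were the 2 lower ones, beside 17.3%. Between MUNC genomic and control GM 17 passed, against 26.8% of all genes, 13 of them higher (12.2%) and 4 lower (Axin2, Dkk2, Wnt4 and Wnt10a, 14.5%). In DM3, MUNC spliced cells differed from control in 24 of the 37, beside 43.3% of all genes, with 19 higher (22.3%) and 5 lower (Dkk2, Fzd7, Tcf7l1, Wnt7b and Wnt9a, 21.0%). MUNC genomic cells differed in 20, beside 40.3%, with 15 higher (19.3%) and 5 lower (Axin2, Dkk2, Fzd2, Fzd7 and Wnt10b, 20.9%). The 37 had a median log2 difference from control in DM3 of 0.41 in MUNC spliced and 0.16 in MUNC genomic cells, beside 0.00895 and -0.00986 over all tested genes. Genes that passed the filter through MUNC libraries only are among the 37, so these medians are no support for a shift of the pathway. Comparisons in 1 medium share the control libraries. The direct comparison of the lines called 23 genes in GM, beside 35.8% of all genes, of which MUNC spliced cells held 14 at the higher level (19.9%) and 9 at the lower (16.0%). In DM3 it called 27, beside 44.2%, with 16 higher (23.4%) and 11 lower (20.8%) in the spliced line. Axin1, a constant part of the destruction complex, Wnt2b and Dkk3 were called in none of these comparisons, nor on differentiation. Among the genes named by rule, and over the 9 comparisons between groups, Lgr4 was called in 9, Tcf7 in 8, and Fzd1, Fzd3 and Wnt7b in 7. Axin2 and Fzd6 were called in 6, and Fzd8, Lgr6, Rspo2, Rspo3, Wnt9a, Wnt10a, Wnt10b and Znrf3 in 5. Dkk2, Ror2, Sfrp2, Tcf7l1, Tcf7l2 and Wnt4 were called in 4, and Lef1, Notum and Sfrp4 in 3. In the authors' deposited tables, which cover differentiation of control cells and the 4 comparisons of a MUNC line with control, every member called here had the same sign. Those tables compare the same groups of this series, so the shared sign is no independent support. At an adjusted p under 0.05 they call 14 members on control differentiation, against 12 here. For MUNC genomic against control in DM3 they call 24, against 20, and the other 3 comparisons differ by less.

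**Figure D2:**
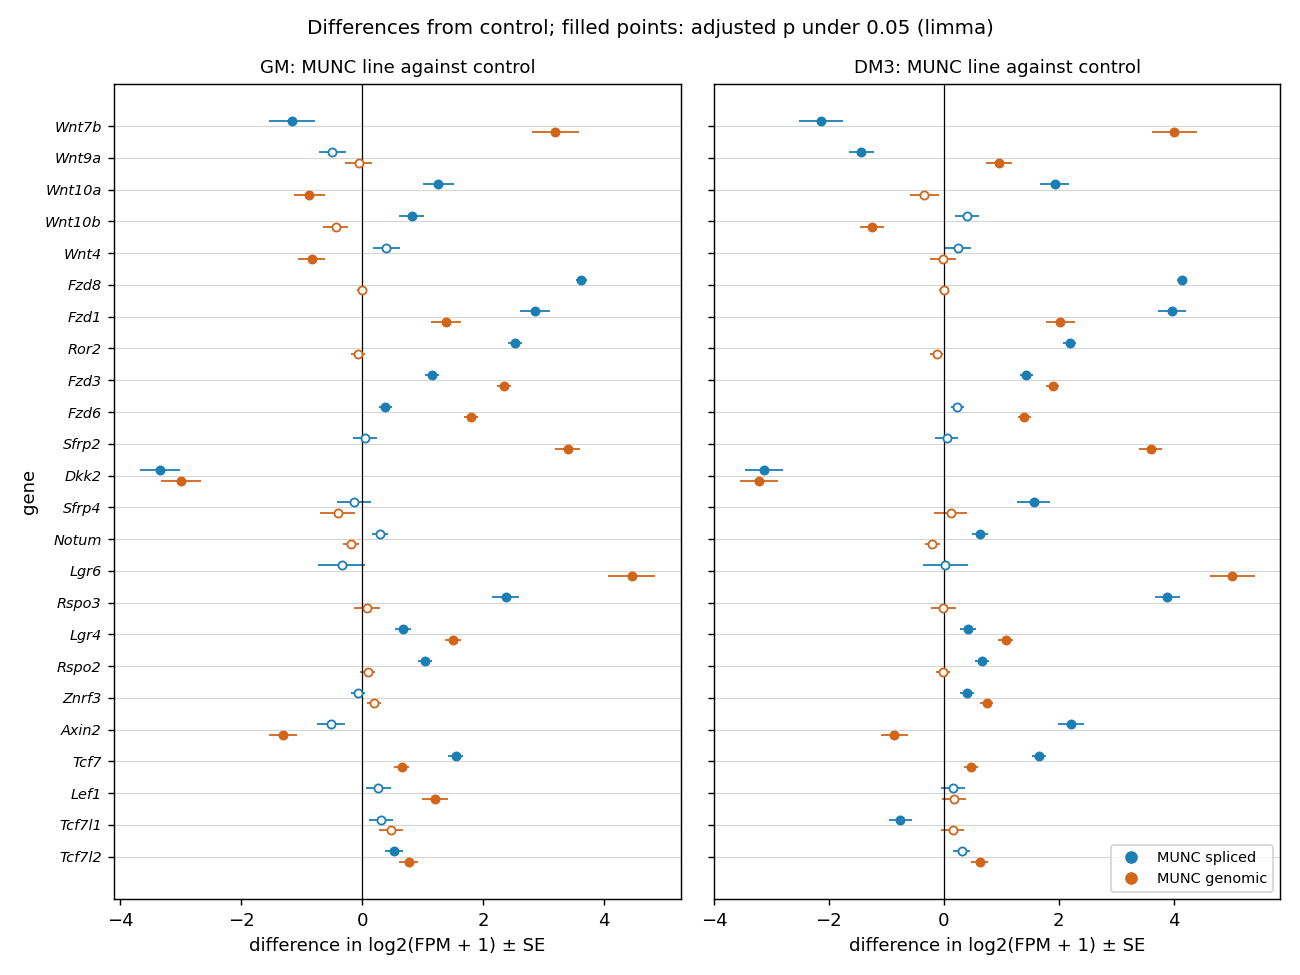
Difference of each MUNC line from control in log2(FPM + 1), with its SE, in GM (left) and DM3 (right) for Axin2 and the 23 named genes, ordered by role from ligands at the top to intracellular genes at the bottom. Filled points passed an adjusted p of 0.05 in limma. Fzd8, Rspo3 and Ror2 lie right of 0 for MUNC spliced alone, Lgr6, Wnt7b and Sfrp2 for MUNC genomic alone, and Dkk2 lies near -3 for both.

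Among the ligands, Wnt7b separated the lines most. Wnt7b (ENSMUSG00000022382, chr15:85535437-85582473, reverse strand), a ligand of canonical and noncanonical pathways, stood at 7.44, 13.1 and 7.54 FPM in the 3 control GM libraries, at 1.39, 7.86 and 3.34 FPM in MUNC spliced GM and at 85.3, 147 and 59.7 FPM in MUNC genomic GM. The DM3 values were 4.19, 4.70 and 7.02 FPM in control, 0.190, 0.784 and 0.325 FPM in MUNC spliced and 109.9, 87.7 and 100.3 FPM in MUNC genomic cells. All 6 MUNC genomic libraries lay above all 12 others, and in DM3 the 3 lines did not overlap. In DM3 the mean was 18.7-fold the control mean in MUNC genomic cells (log2 difference 4.01, SE 0.39, limma adjusted p 3.94e-07). In MUNC spliced DM3 it was 12.2-fold lower than control (log2 difference -2.13, SE 0.39, limma adjusted p 0.000338). In GM the MUNC genomic difference was 3.19 (limma adjusted p 1.04e-05). The MUNC spliced difference in GM was -1.16 (limma adjusted p 0.0285) with overlapping libraries, and neither edgeR nor DESeq2 on recovered reads called it. That call was also lost without control replicate 2 (-0.91), MUNC spliced replicate 1 (-0.70) or MUNC spliced replicate 3 (-1.13). An antisense gene on the other strand, AU022754, shares 198 bp of exon with Wnt7b and reached 1.17 FPM in a MUNC genomic library, against at most 0.166 FPM in control. The strandedness of the counting is not given in the sources used here, so reads of the pair cannot be told apart.

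Wnt9a differed on differentiation. It was at 8.60, 12.2 and 12.9 FPM in control GM and at 18.5, 27.0 and 22.1 FPM in control DM3, and it rose in MUNC genomic cells too, from 7.57, 13.7 and 11.4 FPM in GM to 45.1, 40.7 and 46.9 FPM in DM3. MUNC spliced cells held 5.48, 9.50 and 8.40 FPM in GM and 7.67, 9.15 and 6.27 FPM in DM3. The 3 DM3 groups did not overlap. The log2 change on differentiation was 0.94 in control (limma adjusted p 0.00178) and 1.96 in MUNC genomic cells (4.36e-06), and in MUNC spliced cells it was 0.00 and missed the threshold (adjusted p 1). The 2 rises did not differ beyond the threshold (interaction 1.01, limma adjusted p 0.0562). Nor was Wnt9a called in the interaction for MUNC spliced cells, so their change was not shown to differ from that of control. In DM3, MUNC genomic cells held 5.75-fold more Wnt9a than MUNC spliced cells (log2 difference of spliced against genomic -2.39, limma adjusted p 2.37e-07).

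Wnt10a and Wnt10b, related ligands known for holding mesenchymal precursors away from fat formation, leaned the other way. Wnt10a was 12.9, 11.7 and 10.3 FPM in control GM, 18.6, 47.5 and 27.7 FPM in MUNC spliced GM, against 4.996, 7.85 and 5.13 FPM in MUNC genomic GM. In DM3 its levels were 10.1, 9.73 and 13.2 FPM in control, 42.4, 55.3 and 37.4 FPM in MUNC spliced and 8.71, 7.41 and 9.19 FPM in MUNC genomic cells. MUNC spliced libraries lay above all libraries of the other lines, and the lowest of the 6 belonged to GM. The difference from control was 1.26 in GM (limma adjusted p 0.00124) and 1.93 in DM3 (1.63e-05). MUNC genomic cells were lower than control in GM (-0.87, limma adjusted p 0.0179), a call lost without control replicate 1 (-0.80), MUNC genomic replicate 1 (-0.77) or MUNC genomic replicate 3 (-0.79), and were not called in DM3 (-0.34, 0.313).

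Wnt10b was the most abundant ligand per exon length in control cells. It averaged 46.3 ± 7.33 FPM in control GM, 83.7 ± 20.6 FPM in MUNC spliced GM, against 34.0 ± 5.55 FPM in MUNC genomic GM (SD, n = 3 each). The DM3 means were 49.1 ± 10.4, 65.1 ± 12.8 and 19.9 ± 2.09 FPM (SD, n = 3 each), in the same order of lines. MUNC genomic DM3 lay below every other group, with 2.47-fold less than control (log2 difference -1.25, limma adjusted p 0.000142). MUNC spliced cells were higher than control in GM (0.82, limma adjusted p 0.00562) and were not called in DM3 (0.40, 0.124).

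Wnt4 was a minor ligand. It fell on differentiation from 0.785, 0.920 and 0.768 to 0.0576, 0.0592 and 0.0921 FPM in control cells (log2 change -0.77, limma adjusted p 0.00766) and was nearly absent from MUNC genomic GM, at 0.0143, 0 and 0.0630 FPM. In MUNC spliced GM 1 library stood apart at 3.13, 0.752 and 0.938 FPM. Wnt6 passed the test in 1 comparison, MUNC spliced against control in DM3 (0.65, limma adjusted p 0.00885), with 0, 0 and 1 reads in control and 26, 41 and 30 reads in MUNC spliced libraries. It passed the filter through the MUNC lines only, so it was bound to lie above control.

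Per kilobase of exon, which allows genes to be compared, the makeup of the ligand pool differed between lines. Summed over the 19 ligands the level was 24.0 ± 2.95 FPM per kb in control GM, 41.3 ± 13.04 in MUNC spliced GM and 36.0 ± 10.7 in MUNC genomic GM (SD, n = 3 each). In DM3 it was 26.9 ± 4.67, 40.3 ± 1.06 and 43.3 ± 3.97 FPM per kb (SD, n = 3 each). Wnt10b held 56.6% ± 2.89 of the control GM pool and 29.1% ± 8.91 of the MUNC genomic GM pool (SD, n = 3 each). In DM3 its shares were 53.3% ± 2.31 in control and 13.5% ± 0.245 in MUNC genomic cells. Wnt7b held 4.004% ± 0.735 in control DM3, 46.7% ± 1.40 in MUNC genomic DM3 and 0.217% ± 0.152 in MUNC spliced DM3. Wnt10a and Wnt10b together made up most of the MUNC spliced DM3 pool, at 45.2% ± 8.53 and 47.6% ± 9.73. These shares are described, not tested.

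**Figure D3:**
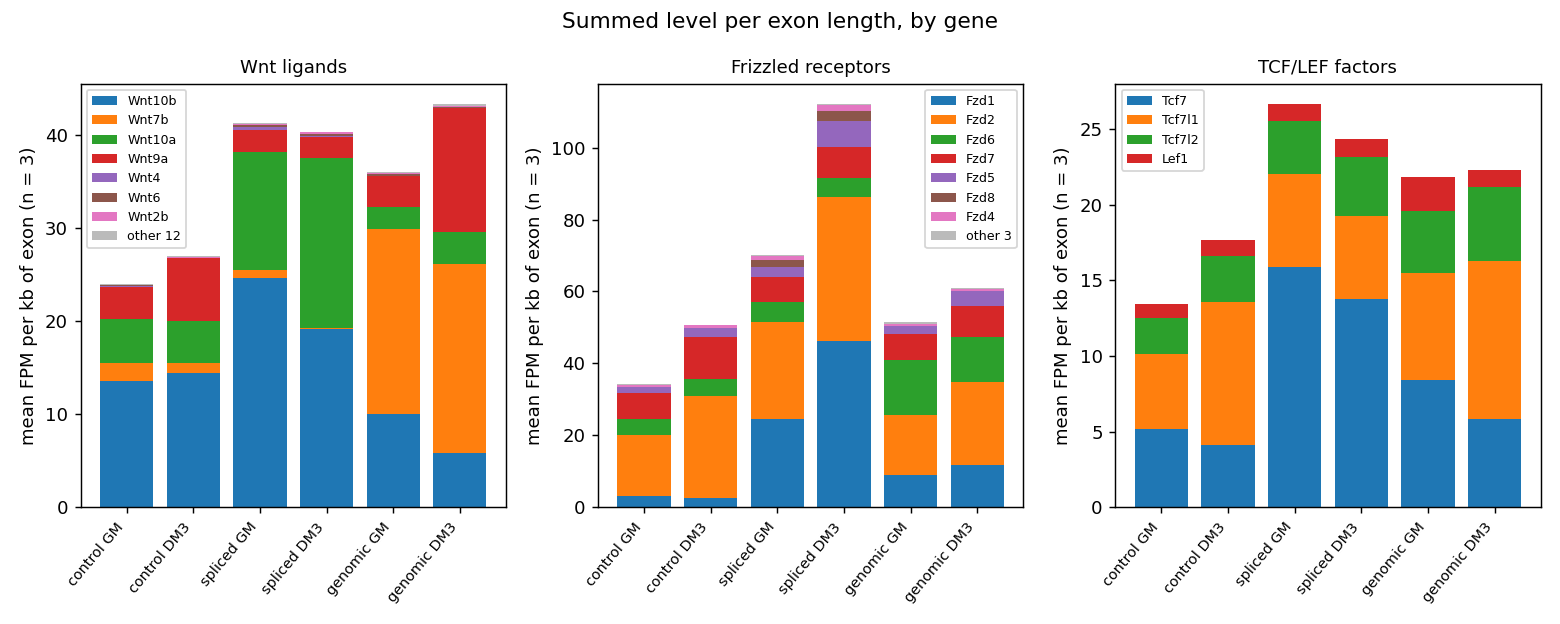
Mean FPM per kb of exon in the 6 groups (n = 3 each), stacked by gene, for Wnt ligands, Frizzled receptors and TCF/LEF factors. The Wnt7b block is thick only in MUNC genomic cells, and the Fzd1 block grows in MUNC spliced cells until the Frizzled total reaches 112 FPM per kb in DM3. Tcf7 is the widest TCF/LEF block in MUNC spliced cells in both media and in the other lines in GM only.

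Of the 8 Frizzled genes tested, 6 were higher than control in MUNC spliced cells in each medium, beside 18.2% of all tested genes in GM and 22.3% in DM3, and Fzd7 was lower in DM3. The 6 include Fzd8, which passed the filter through MUNC spliced libraries only, and Fzd3, which passed it through the MUNC lines only, so both were bound to be higher than control. Fzd8 had 0 reads in all 12 control and MUNC genomic libraries and stood at 12.6, 10.9 and 10.6 FPM in MUNC spliced GM, reaching 17.2, 16.4 and 16.9 FPM after differentiation. Its 6 libraries with reads were tight within each medium, and DM3 lay wholly above GM. In DM3 the MUNC spliced mean of Fzd8 exceeded control at least 293-fold, taking 3 reads a library as the limit for 0 (log2 difference 4.15, SE 0.09, limma adjusted p 1.07e-14). In GM the same bound was 227-fold (log2 difference 3.62, limma adjusted p 4.86e-14).

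Fzd1 was 18.8, 10.1 and 12.4 FPM in control GM, 115, 109.9 and 85.5 FPM in MUNC spliced GM, against 48.0, 41.1 and 24.5 FPM in MUNC genomic GM. In DM3 these became 13.9, 9.35 and 10.8 FPM in control, 152, 211 and 217 FPM in MUNC spliced and 58.4, 44.0 and 45.4 FPM in MUNC genomic cells. The order control, MUNC genomic, MUNC spliced held in both media with no overlap. In DM3 the means were 17.1-fold the control mean in MUNC spliced cells (log2 difference 3.98, SE 0.25, limma adjusted p 3.04e-09) and 4.34-fold in MUNC genomic cells (2.03, SE 0.25, 5.52e-06). Spliced against genomic, the difference was 1.47 in GM (limma adjusted p 0.000205) and 1.95 in DM3 (7.66e-06). Of the summed Frizzled level per exon length, Fzd1 took 9.59% ± 3.33 in control GM and 35.1% ± 3.58 in MUNC spliced GM. In DM3 it took 5.34% ± 1.12 in control and 40.9% ± 3.57 in MUNC spliced cells (SD, n = 3 each). In MUNC spliced DM3 it passed Fzd2, the leading Frizzled of control cells.

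Fzd3 and Fzd6, receptors known from planar polarity, were highest in MUNC genomic cells. Fzd3 had 0 reads in control GM and 0, 0 and 1 in control DM3, against 1.09, 1.39 and 1.21 FPM in MUNC spliced GM. MUNC genomic GM held 4.81, 3.73 and 3.78 FPM. In MUNC genomic GM the Fzd3 mean was at least 81.9-fold that of control (log2 difference 2.35, limma adjusted p 1.34e-10), and the bound for MUNC spliced GM over control was 24.5-fold (1.15, 1.35e-06). Fzd6 was 18.4, 21.5 and 21.2 FPM in control GM and 77.6, 79.8 and 63.7 FPM in MUNC genomic GM. The MUNC genomic libraries of Fzd6 lay above all others in both media, with a log2 difference from control of 1.80 in GM (limma adjusted p 3.19e-09) and 1.40 in DM3 (4.85e-08). In MUNC spliced cells Fzd6 differed from control by 0.39 in GM (limma adjusted p 0.0148, lost without control replicate 1 at 0.32) and by 0.24 in DM3 (0.104).

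Ror2 (ENSMUSG00000021464, chr13:53109312-53286124, reverse strand), a receptor tyrosine kinase of noncanonical Wnt signalling, was highest in MUNC spliced cells. MUNC spliced libraries held 3.89, 5.55 and 5.99 FPM in GM and 4.27, 3.75 and 3.92 FPM in DM3, against at most 0.158 FPM in any control library. MUNC genomic libraries held 0, 1 and 0 reads in GM and 0 in all 3 of DM3. The difference from control was 2.53 in GM (SE 0.11, limma adjusted p 1.01e-10) and 2.19 in DM3 (SE 0.11, 5.00e-10). In DM3 the level was at least 73.2-fold above MUNC genomic cells. Its relative Ror1 followed at lower level, at 0.740, 0.540 and 1.83 FPM in MUNC spliced DM3 with 1 library above the others and 0 reads in MUNC genomic DM3 (log2 difference of spliced against genomic 0.97, limma adjusted p 6.19e-05).

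The remaining receptors moved less. The coreceptors Lrp5 and Lrp6 were higher in MUNC genomic than in control cells in both media (Lrp5 by 1.09 in GM and 0.51 in DM3, Lrp6 by 0.63 and 0.70, limma adjusted p 0.000104, 0.0188, 0.00113 and 0.000241). In MUNC spliced cells Lrp5 was higher in GM (1.03, limma adjusted p 0.000153) and Lrp6 in neither medium (0.17, 0.299, and 0.17, 0.268). Fzd5 in DM3 ran from 18.3 ± 1.38 FPM in control through 29.1 ± 2.19 in MUNC genomic to 48.8 ± 1.26 in MUNC spliced cells (SD, n = 3 each) without overlap. Fzd4 was called in MUNC spliced DM3 alone among the comparisons with control (1.12, limma adjusted p 0.00323). Fzd7, prominent in myoblasts, was lower than control in DM3 in both lines (log2 difference -0.42 in MUNC spliced and -0.41 in MUNC genomic cells, limma adjusted p 0.00776 and 0.00984). Lrp5, Lrp6, Fzd4, Fzd5, Fzd7, Ror1 and Wnt6 fall outside the rule for named genes and were chosen after their values were seen.

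**Figure D4:**
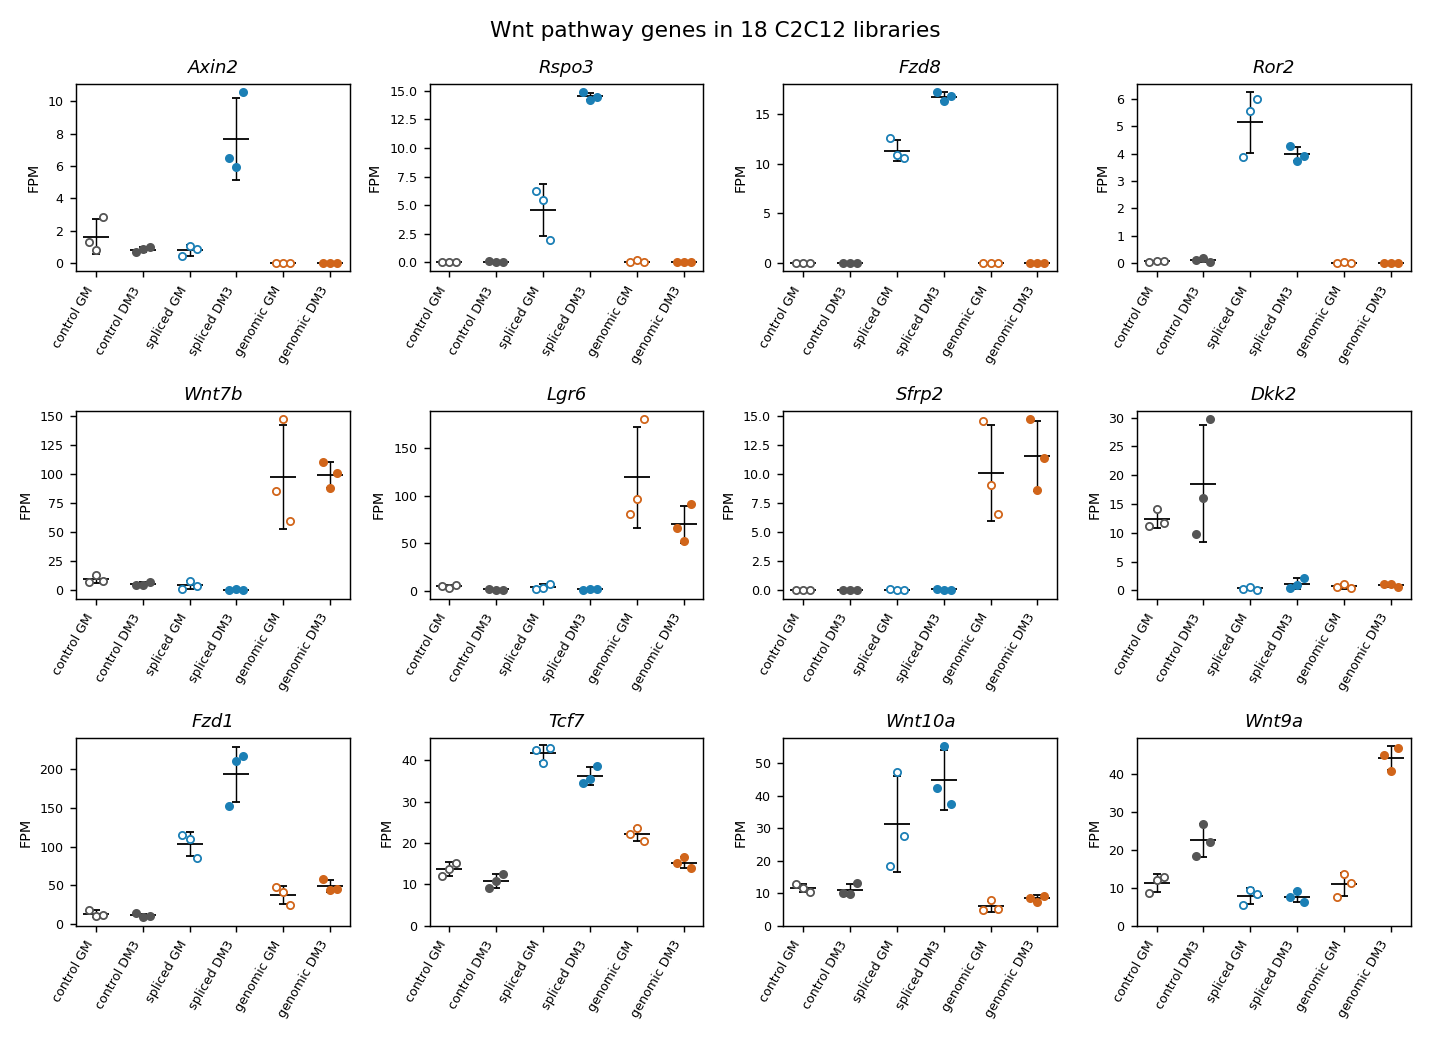
FPM of 12 Wnt pathway genes in each library (points, open for GM and filled for DM3), with the mean (bar) and SD (whiskers) of each group of 3. Rspo3, Fzd8 and Ror2 are off the floor in MUNC spliced cells, Wnt7b, Lgr6 and Sfrp2 tower in MUNC genomic cells, Dkk2 is low in both lines and Axin2 peaks in MUNC spliced DM3.

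Of the 10 antagonists 5 were tested, and Dkk2 and Sfrp2 differed most. Dkk2 (ENSMUSG00000028031, chr3:132085292-132180304, forward strand), which binds Lrp coreceptors, was 11.2, 14.1 and 11.7 FPM in control GM and 9.81, 16.1 and 29.7 FPM in control DM3. MUNC spliced cells held 0.202, 0.660 and 0.144 FPM in GM and 0.380, 0.889 and 2.22 FPM in DM3, and MUNC genomic cells 0.544, 1.11 and 0.420 FPM and 1.11, 1.19 and 0.507 FPM. All 6 control libraries lay above all 12 MUNC libraries. In GM the mean was 36.9-fold lower in MUNC spliced cells (log2 difference -3.34, SE 0.33, limma adjusted p 1.20e-06) and 17.9-fold lower in MUNC genomic cells (-3.00, SE 0.33, 3.63e-06). In DM3 the differences were -3.13 and -3.22 (limma adjusted p 1.52e-06 and 8.33e-07), and the direct test between the lines did not call the gene in either medium (-0.34, 0.450, and 0.09, 0.849).

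Sfrp2 (ENSMUSG00000027996, chr3:83766321-83774316, forward strand), a secreted Frizzled-like protein that binds Wnts, appeared in MUNC genomic cells at 14.6, 9.08 and 6.53 FPM in GM and 14.7, 8.62 and 11.3 FPM in DM3. No control or MUNC spliced library exceeded 0.101 FPM, and control libraries held at most 1 read. The difference from control was 3.39 in GM (SE 0.20, limma adjusted p 1.27e-09) and 3.60 in DM3 (SE 0.20, 4.55e-10). Spliced against genomic, the difference was -3.34 in GM (limma adjusted p 1.44e-09) and -3.55 in DM3 (4.36e-10). An antisense gene that shares 224 bp of exon with it, Gm26771, reached no more than 0.0252 FPM.

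Sfrp4 and Notum, an enzyme that inactivates Wnt proteins, were low and were called in MUNC spliced DM3. Sfrp4 stood there at 2.32, 2.33 and 6.67 FPM against 0.461, 0.256 and 0.774 FPM in control DM3, with 1 MUNC spliced library well above the other pair (log2 difference 1.57, limma adjusted p 0.000371). Notum was 0.778, 0.871 and 1.43 FPM in MUNC spliced and 0.154, 0.335 and 0.405 FPM in control DM3 (0.63, limma adjusted p 0.00117), and 0.119, 0.196 and 0.0781 FPM in MUNC genomic DM3 (spliced against genomic 0.83, 9.32e-05). Neither pair of groups overlapped.

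The R-spondin axis split between the lines by ligand and by receptor. Rspo3 (ENSMUSG00000019880, chr10:29452416-29535867, reverse strand), an R-spondin, stood in MUNC spliced cells at 6.26, 5.48 and 2.002 FPM in GM and 14.9, 14.2 and 14.4 FPM in DM3. Control libraries held 1, 0 and 0 reads in GM and 5, 2 and 0 in DM3, and no MUNC genomic library exceeded 0.186 FPM. MUNC spliced libraries thus lay above all others, with 1 low library in GM and 3 close ones in DM3. The difference from control was 2.37 in GM (SE 0.22, limma adjusted p 4.87e-07) and 3.89 in DM3 (SE 0.22, 1.10e-09). Spliced against genomic, it was 3.90 in DM3 (limma adjusted p 4.04e-10). Rspo3 shares 404 bp of exon with the antisense gene Gm48159.

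Rspo2 took the same side at lower level, with 1.14, 1.45 and 0.667 FPM in MUNC spliced GM, then 0.702, 0.453 and 0.777 FPM in MUNC spliced DM3, beside 0 reads in control GM. It was at least 21.6-fold above control in GM (log2 difference 1.04, limma adjusted p 6.38e-06) and higher by 0.67 in DM3 (0.000309). Rspo1, chosen after its values were seen, was the R-spondin of MUNC genomic cells, at 0.286, 0.777 and 0.546 FPM in GM and 0.218, 0.482 and 0.663 FPM in DM3, against 0 or 1 read in each MUNC spliced library (differences from control 0.52 and 0.42, limma adjusted p 0.00487 and 0.0118). Summed over the 4 R-spondins, the level per exon length was 4.83 ± 0.125 FPM per kb in MUNC spliced DM3, 0.0631 ± 0.0662 in control DM3 and 0.254 ± 0.107 in MUNC genomic DM3 (SD, n = 3 each).

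Of the receptors for R-spondins, Lgr4 was the most abundant in every group and Lgr6 (ENSMUSG00000042793, chr1:134983301-135105276, reverse strand) the one that differed most. Lgr6 was 4.35, 2.81 and 5.75 FPM in control GM, 1.46, 2.38 and 7.18 FPM in MUNC spliced GM, against 81.0, 96.6 and 181 FPM in MUNC genomic GM. The DM3 libraries stood at 2.04, 0.631 and 0.921 FPM in control, 0.892, 1.20 and 1.43 FPM in MUNC spliced and 65.8, 52.2 and 91.0 FPM in MUNC genomic cells. The 6 MUNC genomic libraries lay above the 12 others, whose lines overlapped each other. The MUNC genomic mean was 27.7-fold the control mean in GM (log2 difference 4.45, SE 0.39, limma adjusted p 2.18e-07) and 58.3-fold in DM3 (5.02, SE 0.39, 2.77e-08). MUNC spliced cells were not called against control (-0.34 in GM, 0.528, and 0.03 in DM3, 0.959).

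Lgr4 averaged 98.9 ± 17.1 FPM in control GM, 157 ± 7.32 in MUNC spliced GM and 281 ± 32.4 in MUNC genomic GM, and fell in DM3 to 68.0 ± 7.18, 91.4 ± 12.3 and 145 ± 14.2 FPM (SD, n = 3 each). Both lines exceeded control in GM (1.59-fold and 2.84-fold, limma adjusted p 0.00115 and 3.11e-07) and in DM3 (1.34-fold and 2.13-fold, 0.0199 and 8.53e-06). The MUNC spliced call in DM3 was lost without control replicate 1 or 3 or MUNC spliced replicate 3 (log2 differences 0.39, 0.37 and 0.32). Lgr5, also chosen after its values were seen, was found in MUNC spliced cells at 0.707, 0.348 and 0.487 FPM in GM and 1.03, 0.401 and 0.542 FPM in DM3, with 0 reads in control DM3 and MUNC genomic DM3. The ligase Znrf3, itself a beta-catenin target in many tissues, was higher than control in DM3 in both lines, by 0.41 in MUNC spliced and 0.75 in MUNC genomic cells (limma adjusted p 0.00924 and 7.34e-05), and in neither in GM (-0.07, 0.686, and 0.20, 0.229).

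Axin2 (ENSMUSG00000000142, chr11:108920349-108950783, forward strand), the target readout, separated the lines in opposite directions. Control libraries held 1.26, 0.779 and 2.84 FPM in GM and 0.672, 0.829 and 0.958 FPM in DM3. MUNC spliced libraries held 0.404, 1.06 and 0.866 FPM in GM and 6.51, 5.92 and 10.6 FPM in DM3. MUNC genomic libraries held 1, 0 and 0 reads in GM and 0 in all 3 of DM3. MUNC spliced DM3 lay above all 15 other libraries and MUNC genomic libraries below the 12 others, while control GM, control DM3 and MUNC spliced GM overlapped.

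In DM3, Axin2 was 9.35-fold the control mean in MUNC spliced cells (log2 difference 2.22, SE 0.23, limma adjusted p 1.29e-06) and at least 15.1-fold lower than control in MUNC genomic cells (-0.86, SE 0.23, 0.00689). Set against MUNC genomic DM3, the MUNC spliced level stood above by 141-fold or more (3.08, limma adjusted p 1.63e-08). In GM, MUNC genomic cells were lower than control (-1.31, limma adjusted p 0.000481) and MUNC spliced cells were not called (-0.51, 0.0988), except in the fit without control replicate 2 (-0.75) and under quantile normalization (-0.76). On differentiation Axin2 rose 9.86-fold in MUNC spliced cells (2.27, limma adjusted p 3.59e-06) and was not called in control (-0.46, 0.101, or -0.70 and called without control GM replicate 2 or under quantile normalization) or MUNC genomic cells (-0.01, 0.989). The interaction, which tests whether the MUNC spliced change differed from the control change, was 2.72 (SE 0.33, limma adjusted p 0.000164). Spliced against genomic in GM, the difference was 0.80 (limma adjusted p 0.0122), lost without MUNC spliced replicate 2 (0.69). Myotube marker RNA was also highest in MUNC spliced DM3, at 932 FPM in replicate 1, 165 FPM in replicate 2 and 225 FPM in replicate 3. Its part in the Axin2 change was not tested.

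The TCF/LEF factors that carry beta-catenin to DNA shifted in their mix. Tcf7 was 11.9, 13.8 and 15.3 FPM in control GM, 42.5, 39.3 and 43.0 FPM in MUNC spliced GM, against 22.1, 23.6 and 20.4 FPM in MUNC genomic GM, and the 3 lines did not overlap. In DM3 the libraries held 9.04, 10.9 and 12.4 FPM in control, 34.5, 35.5 and 38.5 FPM in MUNC spliced and 15.2, 16.6 and 14.01 FPM in MUNC genomic cells, again without overlap. The MUNC spliced difference from control was 1.55 in GM and 1.66 in DM3 (limma adjusted p 8.95e-08 and 3.02e-08). MUNC genomic cells differed by 0.66 and 0.47 (0.000857 and 0.00613).

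Among the comparisons with control, Lef1 was called in MUNC genomic GM, at 18.5, 23.4 and 17.8 FPM against 7.12, 8.48 and 8.40 FPM in control GM (1.21, limma adjusted p 0.000425). In DM3 the MUNC genomic libraries overlapped control, at 9.48, 11.03 and 9.50 FPM against 6.68, 11.6 and 8.56 FPM (0.17, limma adjusted p 0.548). Tcf7l1, often a repressor, averaged 36.99 ± 6.41 FPM in control DM3, 41.2 ± 4.84 in MUNC genomic DM3 and 21.6 ± 4.40 in MUNC spliced DM3 (SD, n = 3 each), where it was lower than control (log2 difference -0.76, limma adjusted p 0.00561). Tcf7l2 was higher than control in MUNC genomic cells by 0.77 in GM and 0.62 in DM3 (limma adjusted p 0.00113 and 0.00330). Of the summed TCF/LEF level per exon length, Tcf7 took 23.3% ± 1.82 in control DM3 and 56.9% ± 3.40 in MUNC spliced DM3, and Tcf7l1 took 53.2% ± 2.89 and 22.5% ± 2.29 (SD, n = 3 each). In GM Tcf7 had the largest mean share in every line. It took 38.9% ± 6.35 in control, 59.6% ± 5.17 in MUNC spliced and 38.6% ± 2.15 in MUNC genomic GM. Tcf7l1 took 36.7% ± 4.60, 23.2% ± 3.12 and 32.2% ± 3.96 there.

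Promoter sequences were read for the genes that set the groups apart, to show whether the core that TCF/LEF factors bind lies next to their start sites. Each window is 300 bases from RefSeq in GRCm38.p6, most of them upstream of a RefSeq start site. The 3′ end of 34 of the 49 windows lay in a GENCODE transcript of the gene, and the Fzd7 window ends before the GENCODE start of Fzd7. The core was searched on both strands as CTTTGAA, allowing T in place of either or both of its last 2 A bases, and is printed in capitals. Axin2 is shown as the target readout, Ror2 as a gene of MUNC spliced cells, Lgr6 and Sfrp2 as genes of MUNC genomic cells, and Fzd7 because its window holds a core. The windows are Axin2 at chr11:108920099-108920398, forward strand, Ror2 at chr13:53286075-53286374, reverse strand, Lgr6 at chr1:135105227-135105526, reverse strand, Sfrp2 at chr3:83766071-83766370, forward strand and Fzd7 at chr1:59481897-59482196, forward strand, each printed 5′ to 3′ on the gene's strand.
Axin2: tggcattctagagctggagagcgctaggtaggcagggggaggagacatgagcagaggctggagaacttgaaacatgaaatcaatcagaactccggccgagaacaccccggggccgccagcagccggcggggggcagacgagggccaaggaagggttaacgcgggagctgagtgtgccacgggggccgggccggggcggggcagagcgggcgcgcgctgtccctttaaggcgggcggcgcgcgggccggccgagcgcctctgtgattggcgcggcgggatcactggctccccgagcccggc
Ror2: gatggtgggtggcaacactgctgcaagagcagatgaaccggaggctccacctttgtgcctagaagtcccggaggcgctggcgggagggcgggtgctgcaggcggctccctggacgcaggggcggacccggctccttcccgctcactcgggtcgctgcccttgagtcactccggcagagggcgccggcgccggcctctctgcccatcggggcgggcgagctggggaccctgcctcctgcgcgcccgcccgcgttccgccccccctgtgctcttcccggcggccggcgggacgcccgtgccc
Lgr6: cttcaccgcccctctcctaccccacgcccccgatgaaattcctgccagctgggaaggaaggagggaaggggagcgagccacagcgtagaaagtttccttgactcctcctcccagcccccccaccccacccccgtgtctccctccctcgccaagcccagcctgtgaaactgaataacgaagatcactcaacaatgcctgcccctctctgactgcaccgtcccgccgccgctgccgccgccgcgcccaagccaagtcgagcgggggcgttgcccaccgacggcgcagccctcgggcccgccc
Sfrp2: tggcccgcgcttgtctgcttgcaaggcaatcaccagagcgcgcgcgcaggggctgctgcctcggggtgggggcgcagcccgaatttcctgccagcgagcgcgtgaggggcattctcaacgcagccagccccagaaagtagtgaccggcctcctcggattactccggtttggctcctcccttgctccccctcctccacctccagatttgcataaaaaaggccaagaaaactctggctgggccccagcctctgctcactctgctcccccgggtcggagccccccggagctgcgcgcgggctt
Fzd7: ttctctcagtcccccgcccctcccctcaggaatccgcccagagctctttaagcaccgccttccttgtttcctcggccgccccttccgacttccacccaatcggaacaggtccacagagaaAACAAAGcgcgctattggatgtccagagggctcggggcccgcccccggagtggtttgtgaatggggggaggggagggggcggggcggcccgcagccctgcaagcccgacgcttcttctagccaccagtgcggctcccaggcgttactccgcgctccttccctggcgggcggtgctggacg

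None of the first 4 windows held the core, which says only that these letters are absent there. Fzd7 held it on the other strand, so it reads as AACAAAG, with its first base at position -130 from the start site. Promoters of 40 of the 60 genes were matched off chromosome 18, 49 windows in all, and 7 of the 49 (14.3%) held the core, beside 5544 of 32851 windows of the same length (16.9%). The 7 belonged to Dkk1, Lef1, Tcf7l2, Wnt11, Wnt3, Wnt5b and Fzd7, 1 gene each, of which Lef1, Tcf7l2 and Fzd7 were tested. CpG dinucleotides were frequent in the windows, with a median of 24 in the tested genes and 25 in those below the filter, against 7 over all windows in the table.

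On differentiation of control cells, 5 of the 12 tested receptors and coreceptors rose while Lgr4, Lgr6, Wnt4 and Tcf7 fell. The test called 12 of the 37, where it called 58.2% of all genes, with 8 higher (29.6%) and 4 lower (28.6%). The 8 were Fzd2, Fzd5, Fzd7, Lrp5, Lrp6, Wnt9a, Tcf7l1 and Tcf7l2, led by Lrp5 (26.7, 36.4 and 36.7 FPM in GM, 54.4, 64.7 and 87.5 FPM in DM3, log2 change 1.02, limma adjusted p 6.60e-05). Tcf7 (-0.32, limma adjusted p 0.0383) and Tcf7l2 (0.38, 0.0398) overlapped between media. Each of these calls was lost without control GM replicate 2 or 3 or control DM3 replicate 1, Tcf7 also without control DM3 replicate 2 and Tcf7l2 also without control DM3 replicate 3. Lgr6 dropped from 4.30 ± 1.47 to 1.20 ± 0.741 FPM (SD, n = 3 each, log2 change -1.29, limma adjusted p 0.00981).

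MUNC spliced cells changed 15 of the 37 on differentiation, beside 35.6% of all genes, 11 upward (17.2%) and 4 downward (18.4%). The rises were Axin2, Rspo3, Sfrp4, Fzd1, Fzd2, Fzd4, Fzd5, Fzd8, Ror1, Lrp6 and Znrf3, and the lower ones Wnt4, Wnt7b, Lgr4 and Rspo2. Ror1 passed the filter through the 3 MUNC spliced DM3 libraries alone, so its rise was bound to appear. The Rspo2 call (-0.33, limma adjusted p 0.0424) was lost in edgeR (adjusted p 0.401) and DESeq2 (0.546), with both other pseudocounts, and without replicate 1 or 2 of MUNC spliced GM or DM3 (-0.36 to -0.20). DESeq2 did not call the Rspo3 rise (1.70, adjusted p 0.1005). Fzd1 was not called without MUNC spliced GM replicate 3 (0.76), nor Znrf3 without MUNC spliced GM replicate 1 (0.30) or DM3 replicate 3 (0.34). Fitted on these 6 libraries alone, 8 were called. MUNC genomic cells changed 13, beside 51.4% of all genes. Of these 7 rose (Fzd2, Fzd5, Lrp5, Lrp6, Tcf7l1, Wnt9a and Znrf3, beside 26.3%) and 6 fell (Fzd3, Fzd6, Lef1, Lgr4, Tcf7 and Wnt10b, beside 25.1%). Lgr4 (-0.95, limma adjusted p 3.11e-05) and Lef1 fell furthest on the log2 scale, Lef1 from 19.9 ± 3.07 to 10.002 ± 0.887 FPM (SD, n = 3 each, log2 change -0.92, limma adjusted p 0.00172).

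The change on differentiation differed from that of control for 9 genes in MUNC spliced cells, beside 14.4% of all genes, 7 of them upward (7.43%) and 2 downward (6.94%). Axin2 had the largest such difference and Sfrp4 (1.70, limma adjusted p 0.0130) came next. Frizzled genes contributed Fzd1 (1.12, limma adjusted p 0.0411), Fzd5 (0.80, 0.00533) and Fzd8 (0.53, 0.0115), and Rspo3 (1.52, 0.00556) and Ror1 (0.66, 0.0489) completed the 7. Fzd8 and Rspo3 rest on control groups at or near 0: edgeR and DESeq2 on recovered reads gave Rspo3 the opposite sign, -0.87 and -1.23, and did not call Fzd8. Ror1 passed the filter through the 3 MUNC spliced DM3 libraries alone, so its upward value was favoured by the filter. Tcf7l1 (-1.07, limma adjusted p 0.0203) and Lrp5 (-0.81, 0.0290) were the 2 downward, and both were called higher on differentiation in control and not called in MUNC spliced cells (-0.17, 0.523, and 0.20, 0.344). The call of Tcf7l1 was lost without control DM3 replicate 3 (-0.93) or MUNC spliced GM replicate 2 (-0.95), and that of Fzd1 without replicate 1 or 3 of control GM, replicate 2 or 3 of MUNC spliced GM, of control DM3 or of MUNC spliced DM3 (0.89 to 1.17). Without control DM3 replicate 3 the count of 9 became 5, and that of all tested genes went from 1993 to 1063. It was 6 without control DM3 replicate 2 or MUNC spliced GM replicate 2, with 1093 and 1203 of all genes. With the replicate number as a block it was 12, and 3868 of all genes were called. In MUNC genomic cells 2 genes were called, beside 8.81% of all genes: Lef1 downward (-1.04, limma adjusted p 0.0380, beside 5.25%) and Znrf3 upward (0.55, 0.0458, beside 3.56%). Neither was called without control GM replicate 3, MUNC genomic GM replicate 1 or 2, control DM3 replicate 2 or 3, or any MUNC genomic DM3 library. With the replicate number as a block the count was 7, while that of all tested genes went from 1222 to 2265.

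Further genes of the pathway gave a mixed picture. Of 72 listed genes 69 were matched and 54 tested. In GM, 14 were higher and 13 lower in MUNC spliced than in control cells, beside 18.2% and 17.3% of all tested genes, and 9 higher and 9 lower in MUNC genomic cells, beside 12.2% and 14.5%. In DM3 the counts were 11 higher and 17 lower in MUNC spliced cells, beside 22.3% and 21.0%, and 11 higher and 13 lower in MUNC genomic cells, beside 19.3% and 20.9%. Their median log2 difference from control in DM3 was -0.13 in MUNC spliced and -0.02 in MUNC genomic cells, beside 0.00895 and -0.00986 over all tested genes. On differentiation of control cells 23 rose and 9 fell, beside 29.6% and 28.6% of all tested genes.

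Single genes of that list differed by more. Vangl2, a planar polarity protein, averaged 1.36 ± 0.299 FPM in control GM, 23.3 ± 3.47 in MUNC spliced GM and 29.3 ± 1.95 in MUNC genomic GM (SD, n = 3 each, log2 differences 3.36 and 3.69, limma adjusted p 8.10e-10 and 1.35e-10). Musk, the receptor kinase of the neuromuscular junction, whose extracellular part resembles Frizzled, stood at 0.442, 0.395 and 0.608 FPM in control DM3, compared with 3.95, 3.05 and 3.67 FPM in MUNC spliced DM3 and 36.98, 52.2 and 54.0 FPM in MUNC genomic DM3 (MUNC genomic against control 5.02, limma adjusted p 7.62e-13). Tle4, a corepressor that binds TCF/LEF factors, was listed at 0 in all 6 MUNC genomic libraries against 8.45, 5.58 and 5.62 FPM in control DM3 (-2.90, limma adjusted p 8.19e-10). Apcdd1, an inhibitor at the receptor, was lower than control in MUNC spliced cells (log2 difference -1.71 in GM and -1.32 in DM3, limma adjusted p 2.94e-05 and 0.000218). Daam1 in MUNC genomic GM (-1.10, limma adjusted p 4.83e-05), Celsr3 in MUNC spliced DM3 (-1.27, 9.38e-08) and Wisp2 in MUNC genomic DM3 (-2.01, 0.000102) were also lower than control. In control cells the formin Daam2 and the corepressor Tle2 rose most on differentiation (3.43 and 1.91, limma adjusted p 5.94e-05 and 0.000579).

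Other reported beta-catenin targets moved in both directions. Of 12 matched genes 8 were tested, and in DM3 MUNC spliced cells were higher than control in 2 (Fst and Myc) and lower in 1 (Bambi), while MUNC genomic cells were higher in 1 (Wisp1) and lower in 2 (Bambi and Wisp2; Wisp1 was named after its value was seen), beside the 43.3% and 40.3% of all genes above. Fst, which encodes follistatin, stood at 19.2, 4.15 and 3.74 FPM in MUNC spliced DM3 against 0.0192, 0.118 and 0.0921 FPM in control, highest in replicate 1 (2.88, limma adjusted p 0.000122). Ccnd1, which encodes cyclin D1, fell on differentiation of control cells (-1.98, limma adjusted p 1.13e-05), as did Myc (-1.55, 6.60e-05). Cell cycle markers (6 of 6) moved alongside, summing to 2321 to 2854 FPM in control GM and 189 to 359 FPM in control DM3, and their part in the Ccnd1 and Myc changes was not tested. Bambi, a target that encodes a pseudoreceptor, was lower than control in both lines in both media (all but the MUNC spliced GM value chosen after they were seen; MUNC spliced -1.31 and -0.92, MUNC genomic -0.99 and -0.63, limma adjusted p 3.50e-06, 8.38e-05, 6.66e-05 and 0.00202).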

How the data were processed

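The 18 libraries were mapped to 6 groups of 3 from their titles; the source label disagreed with the title in 9 of them. The table of levels, deposited by the authors, holds a normalized signal taken as FPM per gene (reads scaled per library). All its values came out as whole reads (tolerance 0.1 read, largest deviation 0.0354). STAR, HTSeq, DESeq2 and mm10 are listed, without roles or versions, per the submitters' processing notes. The authors also deposited 5 comparison tables whose headers are those of DESeq2, with log2 fold changes, p-values and scores per gene; the scores were not used, and the others served only to compare signs.

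The 60 genes were chosen by symbol. Genes that reached 0.5 FPM in 3 or more libraries were fitted in limma 3.58.1 (R 4.3.3) on log2(FPM + 1), with all 18 libraries and a mean per group, empirical Bayes moderation with trend, and Benjamini-Hochberg adjustment over 13869 genes. Members and lists were chosen with earlier results of these data known. The text names Axin2 and, per role, up to 5 genes with the largest called change between groups that did not overlap and reached a mean of 1 FPM, and, of further pathway genes, the 2 highest and 2 lowest called in 5 comparisons. Alternatives were pseudocounts of 0.1 and 0.5, other filters and scalings, a fit of the compared groups, a replicate block, each library left out, and edgeR 4.0.16 and DESeq2 1.42.0 on the recovered reads. The fit was tested on simulated data. Exon lengths came from GENCODE, matched for 34490 gene IDs. Same-numbered replicates shared deviations in 6 of the 9 direct comparisons (every correlation over 0.1).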

Additional observations from a re-analysis of the deposited data

Results flagged for a closer look

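Results appear here where the change on differentiation in a MUNC line differed from that in control by the interaction term of limma, a difference between groups. In MUNC spliced cells the differences were 2.72 for Axin2 (adjusted p 0.000164), 1.70 for Sfrp4 (0.0130), 1.52 for Rspo3 (0.00556), 1.12 for Fzd1 (0.0411), 0.80 for Fzd5 (0.00533), 0.66 for Ror1 (0.0489) and 0.53 for Fzd8 (0.0115) on the log2(FPM + 1) scale, all upward. They were -0.81 for Lrp5 (limma adjusted p 0.0290) and -1.07 for Tcf7l1 (0.0203), both downward. In MUNC genomic cells they were -1.04 for Lef1 (limma adjusted p 0.0380) and 0.55 for Znrf3 (0.0458). Each term rests on 12 libraries, 3 a group. Ror1 passed the filter through the 3 MUNC spliced DM3 libraries alone, so its upward value was favoured by the filter. For Axin2, MUNC spliced DM3 stood at 6.51, 5.92 and 10.6 FPM, and the other 3 groups of the term held at most 2.84 FPM.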

How the results depend on the processing

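Of the comparisons of fits other than leaving out a library, 210 kept the direction and the side of the threshold for Axin2 and the counts of Wnt genes, and 1186 did so for single genes, while 40 single-gene calls were lost. Among fits without a library 143 and 721 were kept, 9 counts moved and 65 single-gene calls were lost. Quantile normalization called Axin2 on differentiation of control cells (-0.70) and between MUNC spliced and control in GM (-0.76). Fitting only the compared groups gave 8 Wnt genes in MUNC spliced differentiation, and 3046 instead of 4933 of all genes. The count of 2 in the MUNC genomic interaction became 0 with no filter, 1 with equal sums, quantile normalization or edgeR, and 4 with DESeq2. The Axin2 value of that interaction was -0.78 in edgeR, with MUNC genomic groups at or near 0. Rspo3 in the MUNC spliced interaction reversed in edgeR (-0.87) and DESeq2 (-1.23); neither called it, and its control groups hold at most 5 reads a library.

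Leaving out each library, Axin2 ran from -0.70 to -0.14 in control differentiation, from -0.010 to 0 in MUNC genomic differentiation, from -0.75 to -0.19 between MUNC spliced and control in GM and from 0.69 to 0.97 between the lines in GM. Interaction counts ran from 5 to 10 in MUNC spliced and from 0 to 2 in MUNC genomic cells. Calls that more than 1 library decided were those of Wnt7b (MUNC spliced, GM), Wnt10a (MUNC genomic, GM), Lgr4 (MUNC spliced, DM3), Tcf7l2 (MUNC spliced, GM), Tcf7 and Tcf7l2 (control differentiation), Rspo2 and Znrf3 (MUNC spliced differentiation), Fzd6 and Tcf7l1 (MUNC genomic differentiation), Znrf3 (between the lines in DM3), and Fzd1, Tcf7l1, Lef1 and Znrf3 in the interactions. Fzd1 in MUNC spliced differentiation was lost without MUNC spliced GM replicate 3 (0.76) and Fzd6 between MUNC spliced and control GM without control replicate 1 (0.32). The causes of these shifts were not tested.

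Calls of named genes lost in edgeR on the recovered reads were those of Fzd3 (MUNC genomic differentiation and between the lines in DM3), Tcf7l2 (control differentiation) and Lef1 (MUNC genomic interaction), and in both edgeR and DESeq2 those of Wnt7b (MUNC spliced, GM), Rspo2 (MUNC spliced differentiation) and Fzd8 (MUNC spliced interaction). DESeq2 also lost Rspo3 in MUNC spliced differentiation. Over all tested genes the MUNC spliced interaction called 1993, with 1214 in a fit of the compared groups, 3868 with the replicate block and 1063 at the lowest without a library. The MUNC genomic interaction called 1222, with 777 in edgeR, 2265 with the block and 784 without control DM3 replicate 2. Between MUNC spliced and control GM, 2530 of all genes were higher and 2399 lower. With equal sums per library these became 3240 and 1659, so the shares given beside the Wnt counts depend on the scaling.

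The replicate block gave 7 genes in the MUNC genomic interaction. In the other comparisons it moved no count of Wnt genes by over 1.5 times and ended no call of Axin2 or a named gene. Depth limits genes under about 0.5 FPM, where a few reads decide a value.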
